A study of Mus musculus with 15 samples.

Results

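Genes near single Pax6 peaks were examined across their whole chromatin neighbourhood: Cap2, Farp1, Tshz2, Zfp536, Csf1 and Dhrs3, 6 of the 22350 protein-coding genes of the annotation. They were chosen because the study names them as bound by Pax6 and changed in RNA by Pax6 knockdown, with Cap2, Farp1, Tshz2 and Zfp536 named as lower and Csf1 and Dhrs3 as higher in knockdown cells. The RNA libraries were not analysed here, so these directions are taken from the choice of genes and are no result. Each gene was described in a window of the gene body plus 50 kb on each side, in mm9 coordinates. The gene bodies are Cap2 (ENSMUSG00000021373.9) at chr13:46597217-46745011 on the plus strand, Farp1 (ENSMUSG00000025555.8) at chr14:121434422-121682966 on the plus strand, Tshz2 (ENSMUSG00000047907.7) at chr2:169458671-169897316 on the plus strand, Zfp536 (ENSMUSG00000043456.8) at chr7:38103693-38554771 on the minus strand, Csf1 (ENSMUSG00000014599.4) at chr3:107543966-107563387 on the minus strand and Dhrs3 (ENSMUSG00000066026.7) at chr4:144482730-144518112 on the plus strand. Starts of other protein-coding genes lie in 4 of the windows: C78339 with Cap2, AY702102 and Gm11011 with Tshz2, Ahcyl1 with Csf1, and a transcript of Vps13d with Dhrs3.

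ChIP-seq regions came from newborn lens and from αTN4, cultured lens epithelial cells of the mouse that carry the SV40 T antigen. The αTN4 cells carried a lentiviral shRNA, either a control shRNA or a Pax6 shRNA (Pax6 KD), and were puromycin-selected stable lines. Control cells gave Pax6, RNA polymerase II (Pol2), H3K4me1, H3K4me2 and H3K4me3 regions, Pax6 KD cells gave the H3K4 marks alone, and lenses of CD-1 mice at postnatal day 1 gave H3K4me2. Each of these 9 lists stands for 1 library as labelled, so no comparison below has a replicate error or a test, and a difference between control and KD cells cannot be told apart from a difference between libraries. Pax6 and Pol2 were not measured in the KD cells in the lists used here.

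Pax6 is a DNA-binding factor with a paired domain and a homeodomain that is needed for the formation of the lens and eye. Methylation of lysine 4 of histone H3 marks regulatory DNA: H3K4me3 gathers at active transcription starts, H3K4me1 spreads over enhancers, and H3K4me2 is found at both. The 6 genes have unrelated products. Cap2 encodes a cyclase-associated protein that acts on actin filaments, Farp1 a guanine nucleotide exchange factor with a FERM domain, Tshz2 and Zfp536 zinc finger transcription factors, Csf1 the secreted growth factor of macrophages, and Dhrs3 an enzyme that reduces retinal to retinol.

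The genes were chosen by Pax6 binding and by RNA change in KD cells, so their Pax6 peaks are given as a description. The windows of 777 genes hold a Pax6 peak, or 3.48% of all protein-coding genes, and each of the 6 windows held exactly 1. None of these peaks lay in an exon or within 2 kb of a transcription start of its gene. The Cap2, Farp1 and Tshz2 peaks were in intron 1, at 13.9, 24.2 and 53.8 kb from the 5′ end of the gene. The Zfp536 peak was in intron 4 of the long transcript, 206 kb from the 5′ end and 4.82 kb downstream of the start of a shorter transcript. The Csf1 and Dhrs3 peaks were intergenic, 47.9 kb upstream of Csf1 and 21.4 kb past the 3′ end of Dhrs3. Fold enrichment over background, as deposited by the authors, ran from 6.06 at Cap2 to 8.07 at Dhrs3, around the median of 7.0 for all 504 peaks. With windows of the gene body alone or with 10 kb added, 4 of the 6 genes held a peak, because the Csf1 and Dhrs3 peaks lie farther out.

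The bases at these summits are shown because they are the only sequence that Pax6 was mapped to near each gene. Capitals mark the best match to the paired-domain type word CACGCNTNA where at least 6 of its 7 fixed letters matched, and any complete AP-1 type word (TGANTCA) or Meis type word (TGACAG). Both strands were searched in 200 bp around the summit, and every sequence is written 5′ to 3′ on the plus strand of mm9, whatever the strand of the gene.
Cap2 (chr13:46611071-46611170): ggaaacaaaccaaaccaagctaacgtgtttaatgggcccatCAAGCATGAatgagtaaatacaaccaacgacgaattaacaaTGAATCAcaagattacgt
Farp1 (chr14:121458537-121458636): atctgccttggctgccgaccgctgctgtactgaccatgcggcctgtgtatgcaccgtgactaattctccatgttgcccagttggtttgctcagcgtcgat
Tshz2 (chr2:169512392-169512541): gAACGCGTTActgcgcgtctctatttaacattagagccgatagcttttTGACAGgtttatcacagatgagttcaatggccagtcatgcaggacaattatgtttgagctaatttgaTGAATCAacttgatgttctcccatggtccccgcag
Zfp536 (chr7:38348538-38348637): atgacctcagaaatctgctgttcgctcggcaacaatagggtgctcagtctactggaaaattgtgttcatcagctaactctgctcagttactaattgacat
Csf1 (chr3:107611214-107611313): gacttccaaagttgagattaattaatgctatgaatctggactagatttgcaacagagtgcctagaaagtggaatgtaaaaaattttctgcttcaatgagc
Dhrs3 (chr4:144539465-144539574): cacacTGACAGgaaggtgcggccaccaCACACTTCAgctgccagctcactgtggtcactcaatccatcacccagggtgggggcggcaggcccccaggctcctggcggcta

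None of the 6 windows held all 7 letters of the paired-domain type word, which was present at 24 of 504 Pax6 summits (4.76%, 95% Wilson interval 3.22 to 6.99) and in 0.198% of equally long windows 500 bp away. At 3 genes 6 of 7 letters matched: at Cap2 (caagcatga, centred 5 bp before the summit), at Tshz2 (aacgcgtta, 95 bp before it) and at Dhrs3 (cacacttca, 29 bp before it). At least 6 letters matched at 38.3% of all summits and in 20.5% of the windows beside them, so 3 of 6 is close to what summits in general showed. The AP-1 type word was complete at Cap2 and Tshz2, against 21.8% of all summits and 7.04% beside them. The Meis type word was complete at Tshz2 and Dhrs3, against 13.7% and 10.9%. The Ets type word CCGGAA was in none of the 6 windows and at 6.15% of all summits, against 1.88% beside them. These matches describe letters and not binding.

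The regions called at the Pax6 peaks themselves were the same kinds in control and KD cells, except at Dhrs3. In control cells an H3K4me1 island lay over 5 of the 6 peaks, against 76.0% of all 504 Pax6 peaks, and the exception was Zfp536, where the nearest island was 706 bp away. In KD cells 4 of the 6 peaks had an island, against 56.0% of all, and the island at Dhrs3 was no longer called. H3K4me2 overlapped 5 of 6 peaks in both cell lines, against 76.2% of all Pax6 peaks in control and 66.5% in KD cells, and at Dhrs3 the Pax6 peak lay in a gap, with the nearest H3K4me2 peak 23 bp off in control cells and 11 bp off in KD. None of the 6 overlapped H3K4me3, against 6.55% of all Pax6 peaks, although at Zfp536 an H3K4me3 peak lay 38 bp away. Zfp536 was also the gene where the Pax6 peak overlapped a Pol2 peak, as 19.4% of all Pax6 peaks did. With 6 peaks, these counts are close to what Pax6 peaks in general showed.

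The strength of the H3K4me2 peaks at the Pax6 peaks was lower in KD cells at each gene when given as a percentile by fold enrichment within its own list. Of all kept H3K4me2 peaks, 57.4% had a lower percentile in KD cells. At Cap2 it went from the 92.8th to the 76.7th percentile, a change of -16.1 points. At Farp1 the change was -17.3 points, at Tshz2 -11.8 and at Csf1 -13.4. At Zfp536, where the deposited fold was 23.2 in control and 24.0 in KD cells, the change was -2.40 points, close to the median of -1.85 over all 54644 kept H3K4me2 peaks. The peaks on either side of the Dhrs3 Pax6 site changed by -22.4 and -47.3 points. Of all kept H3K4me2 peaks, 0.271% had a lower change than the second of these, 7.11% than the first, and between 11.9% and 20.1% than those of Cap2, Farp1, Tshz2 and Csf1. Peak names in the control H3K4me2 list hold the word bothreps while those of the KD list hold rep, so reads may have been pooled in one list and not in the other; the part of this in the percentiles was not tested.

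Relative to all kept islands, H3K4me1 read density at the same sites changed little at Cap2, Farp1 and Csf1 and was higher at Tshz2. For islands called in both lines, the change is log2 of KD over control reads per kb of island, from which the median of the 17559 islands kept in the genome, -0.32, was subtracted. The island over the Cap2 peak, with 116 reads in control cells, changed by -0.03 with a counting error of 0.20. The Farp1 island (127 reads) changed by -0.04 and the Csf1 island (830 reads over 27400 bp, mostly beyond the Pax6 peak) by -0.09. The Tshz2 island (77 reads) was at 0.55 with a counting error of 0.24, above 93.9% of all kept islands. It was 4800 bp wide in control cells, and the KD island over it was narrower, 3600 bp with 68 reads. Each density is over the width of the island as called in its own line. At Dhrs3 the island over the Pax6 peak held 66 reads against 20 input reads in control cells, and no island was called there in KD cells.

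**Figure D1:**
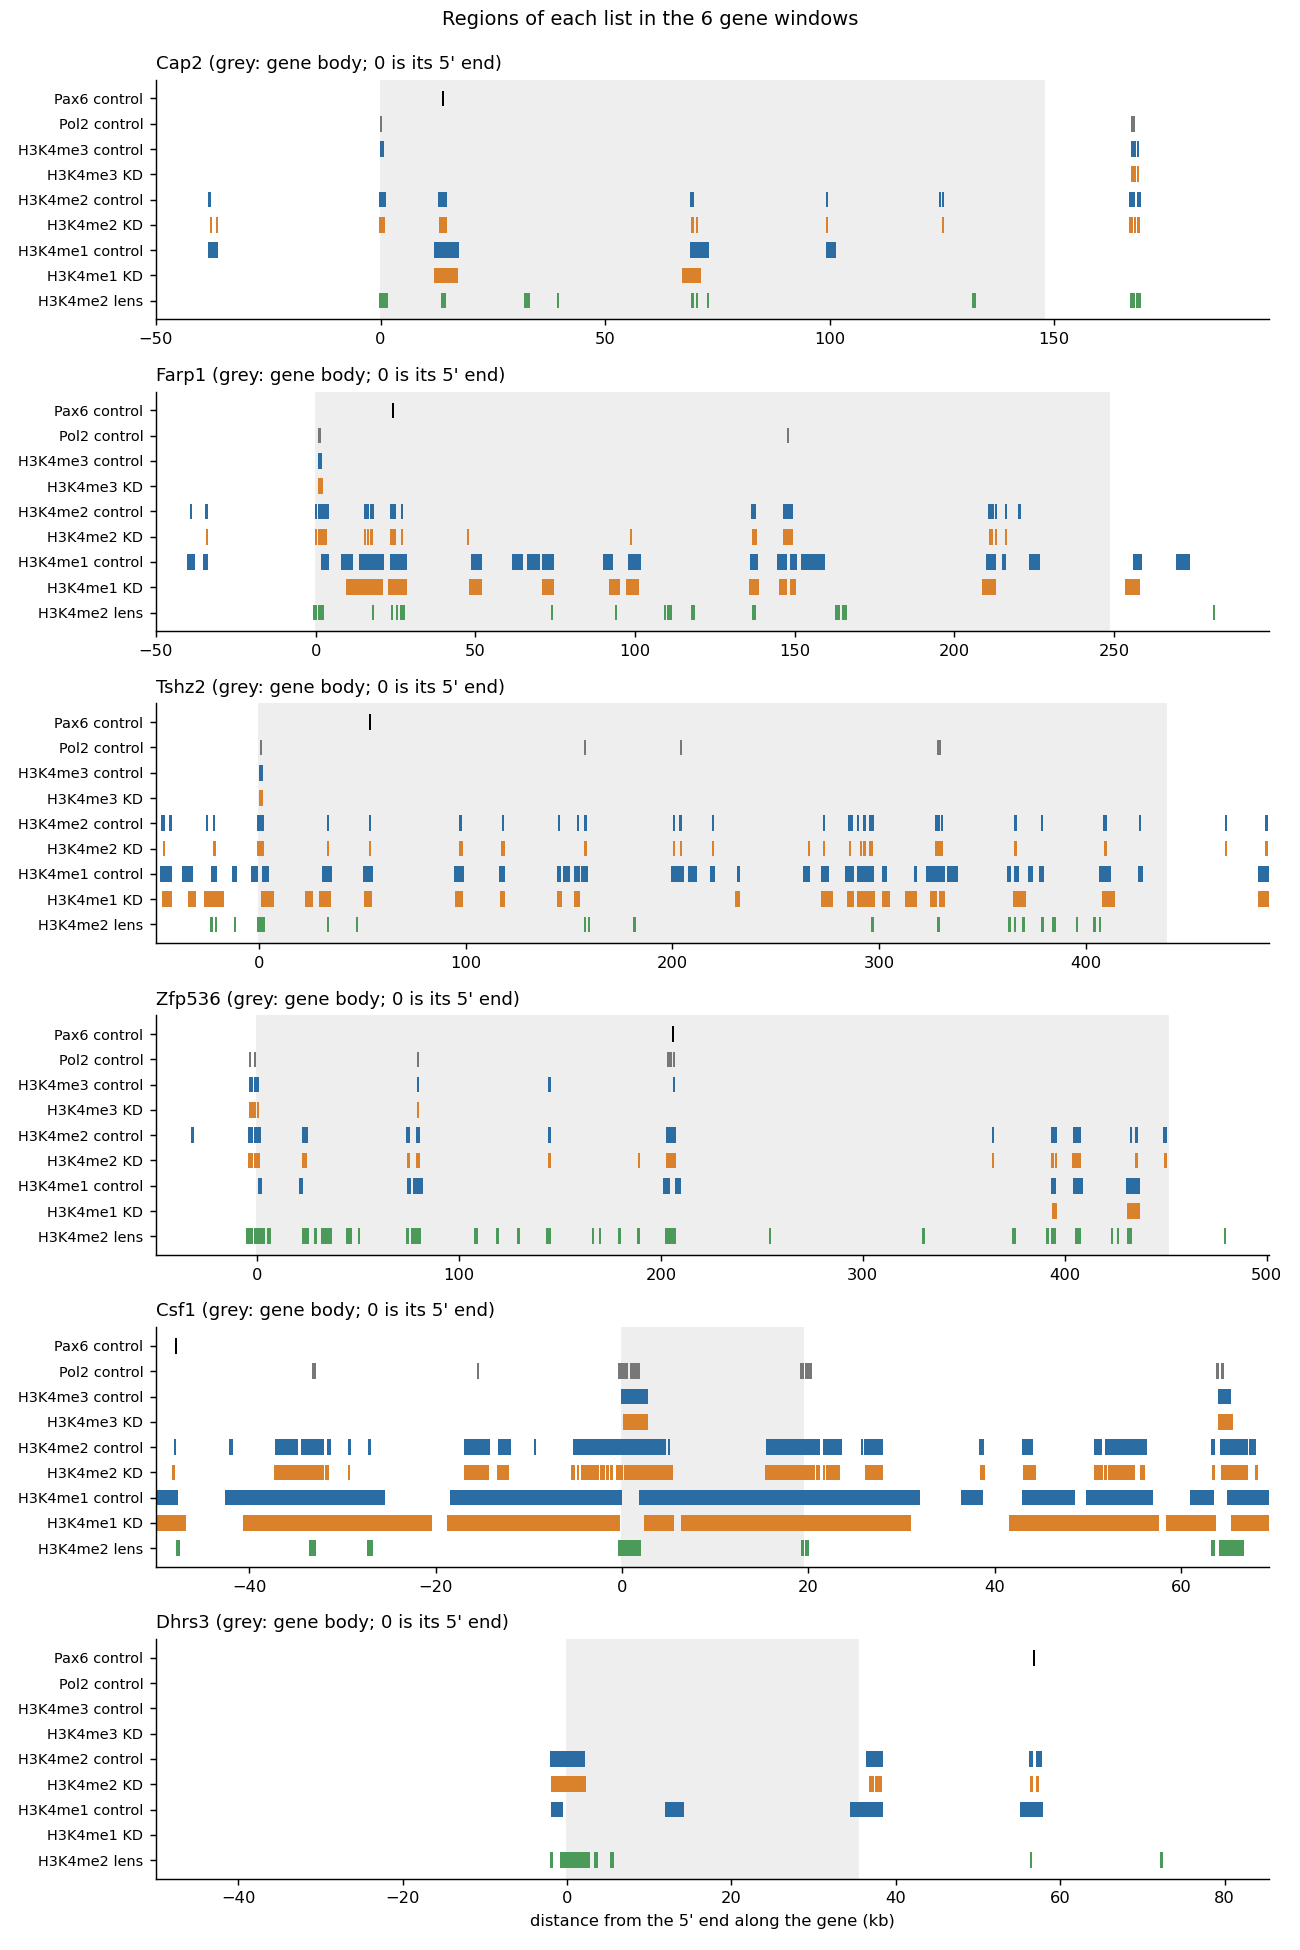
Regions of the 9 lists in the window of each gene, by distance from the 5′ end in kb along the direction of the gene. Blue bars are control cells, orange bars Pax6 KD cells, green bars newborn lens, black bars Pax6 and grey bars Pol2; narrow regions are drawn at a minimum width. The Csf1 window is filled with H3K4me1 in both lines, and the H3K4me1 KD lane of Dhrs3 is empty.

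Pooled over the 6 windows, H3K4me1 islands were kept at a rate somewhat above that of the whole list. A control region was counted as kept when at least 1 bp overlapped a KD region of the same mark. Of 80 control H3K4me1 islands, 44 were kept (55.0%, 44.1 to 65.4), against 46.2% of 38007 islands in all. Thus 36 were lost, against 53.8% of the whole list, and the interval includes the share of the whole list. Intervals of shares are 95% Wilson intervals and cover counting error only. KD cells had 45 islands in these windows, and 1 of them, 24.1 kb into Tshz2 with 55 reads, had no control island, against 6.93% of all KD islands. The KD list is shorter as a whole, with 18417 islands, and over the whole control list a lost island was the more frequent case.

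The pooled share hides opposite extremes: Csf1 kept 8 of 9 islands, Zfp536 2 of 9 and Dhrs3 0 of 4. The islands differed in size, with 48 to 1077 reads in Csf1, 32 to 97 in Zfp536 and 32 to 86 in Dhrs3. The share kept among islands as large as those of Csf1 was not computed. Cap2 kept 2 of 4, Farp1 12 of 21 and Tshz2 20 of 33, each near the median of 50% for gene windows with at least 4 islands. Windows of that kind with no island kept were 7.88% of 9539. The 4 genes named as lower in KD cells kept 36 of 67 islands (53.7%) and the 2 named as higher kept 8 of 13 (61.5%), and these last came from Csf1 alone.

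**Figure D2:**
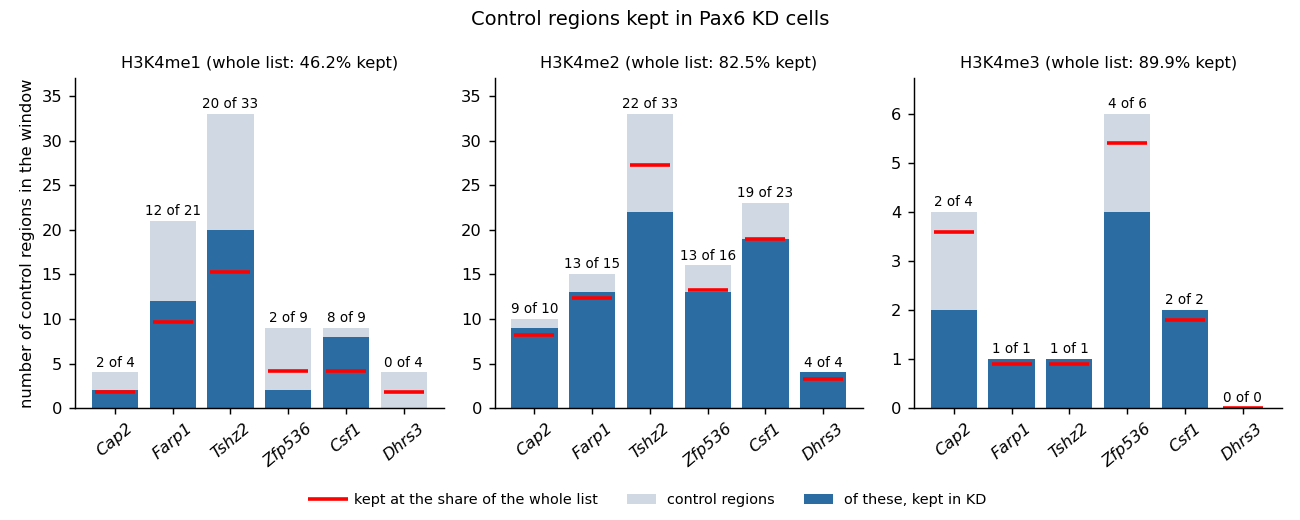
Number of control regions per gene window (pale bars) and number of these that overlap a Pax6 KD region (blue bars), for each H3K4 mark. The red dash is the number that the share of the whole list would give; Csf1 lies above it for H3K4me1, and Zfp536 and Dhrs3 lie below.

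H3K4me1 took up a larger share of the Csf1 window than of the other 5 and of nearly any gene window. Islands covered 75.7% of its window in control cells, above 99.96% of gene windows (median 5.90%), and 79.7% in KD cells. As an amount, the islands reaching into the wider window of Tshz2 were longer in sum, 136.6 kb against 125.4 kb in control cells, and were 33 against 9 in number. The islands reaching into the window held 3885 ChIP reads in control cells and 2522 in KD cells. These sums count each island whole, with any part outside the window, and are not scaled for depth, so they cover unlike stretches. At the upstream end the control island held 830 reads over 27.4 kb, and the KD island reaching into the window held 87 reads over 4000 bp. The control island with the most reads, 1077, spanned 30.2 kb, over most of the gene body and on past its 3′ end. The second, 830 reads over 27.4 kb, held the Pax6 peak at its near end and ran on upstream past the window. Both were kept, with changes in density of -0.08 and -0.09. The single lost island, 37.6 kb from the 5′ end and beyond the 3′ end, held 48 reads. H3K4me2 covered 35.8% of the same window in control cells and 33.0% in KD cells, above 99.8% of gene windows in both. The start of Ahcyl1 lies in this window too, so these regions cannot be assigned to Csf1 alone.

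Dhrs3 was the opposite case, with every H3K4me1 island lost and every H3K4me2 peak kept. The islands held 32 reads at the start of the gene, 41 in its body, 86 at its 3′ end and 66 at the Pax6 peak, against 7, 13, 29 and 20 input reads. Low read numbers go with loss: of all control islands with 32 to 86 reads, 30.9% were kept, and of those that also had a fold at or above the lowest of the Dhrs3 islands (6.32), 25.4% were kept. Most such islands were thus lost elsewhere too. Of gene windows with at least 4 H3K4me1 islands and 4 H3K4me2 peaks, 2.79% of 9318 had no island and every H3K4me2 peak kept. When the window was widened to 100 kb on each side, 2 of 7 islands were kept. Keeping every H3K4me2 peak was common by itself, at 33.9% of 15003 windows with at least 4 such peaks. The 4 kept H3K4me2 peaks of Dhrs3 had a median change of -20.7 percentile points, and the one over the start went from 84.9 to 65.9.

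Zfp536 lost 7 of its 9 H3K4me1 islands, and the 9 held 32 to 97 reads in control cells. Those kept lay in the 3′ part of the gene, 434 and 394 kb from the 5′ end, with 97 and 74 reads and changes of 0.18 and -0.18. Between them an island of 82 reads, 407 kb from the 5′ end, was lost. The lost ones included the islands at both starts, of 32 reads near the 5′ end and 45 reads at the shorter transcript, and the island next to the Pax6 peak (64 reads). An island of 58 reads against 12 input reads, 75.2 kb from the 5′ end, had the highest fold of the 6 windows (10.3) and was lost as well. Of all control islands with 32 to 97 reads, 33.7% were kept.

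Cap2, Farp1 and Tshz2 each kept the 2 islands with the most reads. In Cap2 the islands of 116 and 72 reads were kept and those of 57 and 39 reads were lost. In Farp1 the 2 largest, of 185 and 127 reads, lay 17.5 and 25.9 kb from the 5′ end, and were kept with changes of -0.38 and -0.04. In Tshz2 the island with the most reads (361, kept at 0.01) lay past the 3′ end, 490 kb from the 5′ end, and the next (222 reads, -0.17) in the body at 294 kb. The largest drop in read density among kept islands was in Tshz2, 21.9 kb upstream, where 38.2 reads per kb in control cells were followed by a change of -0.97. The control island there was 2800 bp wide with 107 reads, and the KD island over it was 9400 bp wide with 147 reads. The density was thus lower over a wider call that held more reads.

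Over all 44 kept islands of the 6 genes the median change was -0.05 (interquartile range -0.29 to 0.16), with 26 below 0. The whole list has its median at 0 by construction and an interquartile range of -0.22 to 0.23, and -0.05 lies well inside that range. Without the centring the median was -0.37, and when all ChIP reads in islands set the scale instead it was 0.46. The sign of a change in H3K4me1 density in these windows therefore depends on how the libraries are scaled, and only values relative to other islands can be read.

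**Figure D3:**
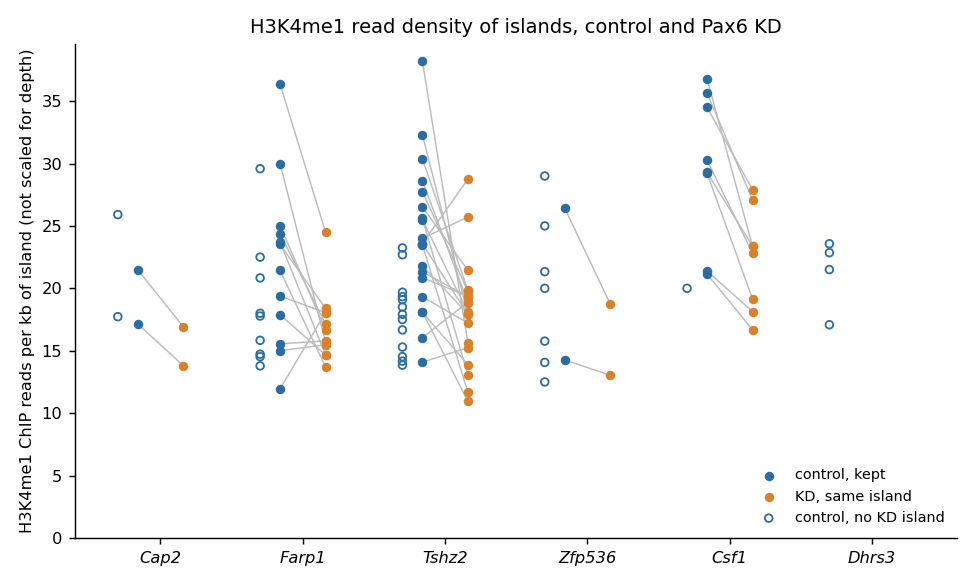
H3K4me1 ChIP reads per kb of each control island in the 6 windows, not scaled for library depth. Filled blue points are kept islands, joined to the density of the KD islands that overlap them (orange); open points are control islands without a KD island. Most lines slope down, as the median of -0.32 over all kept islands does.

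H3K4me2 peaks were kept at nearly the rate of the whole list. Of 101 control peaks in the 6 windows 80 were kept (79.2%, 70.3 to 86.0), against 82.5% of 66274, and 21 were lost, against 17.5%. Losses were spread as 11 of 33 in Tshz2, 4 of 23 in Csf1, 3 of 16 in Zfp536, 2 of 15 in Farp1, 1 of 10 in Cap2 and 0 of 4 in Dhrs3. The lost peaks were weak, with a median percentile of 16.3, which is also the median of all 11630 lost peaks. The strongest lost peak lay 31.9 kb upstream of Zfp536 (fold enrichment 6.44, percentile 46.5). Next came one 39.1 kb upstream of Farp1 (4.84, percentile 29.6), with another at 221 kb in the Farp1 body (4.61). In Tshz2 the strongest lost peak, 25.2 kb upstream, had a fold of 4.27, and the next had 4.26. In Csf1 the lost peaks had folds of at most 3.69, and in Cap2 the single lost peak, at 125 kb in the gene body, had 4.15.

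In all, 7 of 104 KD H3K4me2 peaks in these windows were absent from control cells (6.73%, 3.30 to 13.2), against 7.34% of the whole KD list. All lay in the windows of genes named as lower in KD cells, where 71 of the 104 peaks were. In Cap2 they were 36.5 kb upstream (fold 4.17) and 70.5 kb into the gene (4.86), the latter also an H3K4me2 peak in lens. In Farp1 they were 47.6 and 98.9 kb into the gene, with folds of 4.17 and 5.56. In Tshz2 they had folds of 4.54 and 2.91, and in Zfp536 one of 3.47 overlapped a lens peak. Csf1 and Dhrs3 had none among 33 KD peaks.

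All 6 genes had H3K4me2 within 2 kb of a start in control cells (58.2% of all genes), and in Csf1 the peak there was divided in KD cells. The peak over the Csf1 starts was 9985 bp wide in control cells, with a fold of 11.3 at the 69.3rd percentile, and 8 KD peaks overlapped it. The strongest of these, which reached 651 bp beyond the control peak and held 2 annotated starts, had a fold of 30.7 at the 99.1st percentile, 29.8 points above the control peak, a change above that of 97.3% of all kept H3K4me2 peaks. The KD peak over the 5′ end of the gene had a fold of 13.2 at the 72.3rd percentile, 2.99 points above the control peak, and the other 6 had folds of 3.97 to 10.1, all at lower percentiles than it. Both KD peaks that held an annotated start were thus above the control peak, and the lower ones held none. The size of the change at the Csf1 starts rests on which of these KD peaks is taken. The start of Tshz2 was at the 99.4th percentile in control cells and the 98.5th in KD cells, and the first start of Zfp536 at 87.7 and 84.8. The start of Cap2 went from 90.1 to 74.6 and that of Dhrs3 by -19.1 points. In Farp1 the narrow peak over the first start went from 49.1 to 37.3. The larger Farp1 peak next to it, of 2614 bp, stayed near the top of its list at 96.3 and 94.3.

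H3K4me3 was present within 2 kb of a start in 5 of the 6 genes, against 49.1% of 22342 protein-coding genes, and Dhrs3 had none. In KD cells 4 of the 6 had it, against 47.8%. Across the whole windows 10 of 14 control H3K4me3 peaks were kept (71.4%, 45.4 to 88.3), against 89.9% of 14869, a share just above the interval. Without Cap2 the interval was 49.0 to 94.3, which includes it. The 4 that were lost, against 10.1% of the whole list, were those at the Cap2 start and 2 inside Zfp536. No KD H3K4me3 peak was new in these windows (0 of 11, with an upper limit of 25.9% by the Wilson interval), against 2.65% of the KD list.

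At the Cap2 start both control H3K4me3 peaks, of 347 and 431 bp with folds of 6.04 and 7.55, were weak (percentiles 9.22 and 17.7) and neither had a KD counterpart. Of genes with H3K4me3 at a start in control cells, 3.18% of 10968 had none there in KD cells. H3K4me2 remained called at this start, as given above, and Pol2 was present in control cells with a fold of 4.89. The other H3K4me3 peaks of the window lay past the 3′ end of Cap2, at the start of C78339, and were kept with changes of -17.1 and -16.6 percentile points.

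At the Zfp536 start a control H3K4me3 peak of 2419 bp was represented by 2 KD peaks of 990 bp together. Its percentile went from 38.8 to 12.5, and 2.37% of all kept H3K4me3 peaks had a lower change. The peak just upstream changed by -14.9 points, and the one beyond it, 3.52 kb upstream, from 35.1 to 4.51. The lost ones lay 206 kb into the gene, beside the Pax6 peak (fold 6.09), and at 145 kb (fold 7.55). Zfp536 thus had H3K4me3 of a lower percentile at its first start and 7 lost H3K4me1 islands in KD cells, while 13 of its 16 H3K4me2 peaks were kept.

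At Farp1 and Tshz2 the start H3K4me3 peaks held their place, from 73.1 to 75.1 and from 74.7 to 71.4 in percentile. Both genes are in the group named as lower in RNA. In the paper, RNA-seq and ChIP-seq of knockdown cells used different Pax6 shRNA lines. Farp1 is not among the genes that the paper lists as significantly reduced by qRT-PCR. At Csf1 the start peak of 2903 bp went from the 76.8th to the 93.1st percentile, a change above 93.9% of all kept H3K4me3 peaks. The other H3K4me3 peak of that window, at the start of Ahcyl1, went the other way, from 94.5 to 86.9. Percentiles were higher in KD cells at 3 of the 10 kept H3K4me3 peaks, against 41.2% of all 13362 kept peaks, and these were at Csf1, Farp1 and one weak peak in Zfp536. The median of the 10 was -11.3 points, against -1.92 over all kept peaks. The deposited fold was lower in KD cells at all 10, the Csf1 start included (27.3 in control and 26.0 in KD cells), as it was at 90.1% of kept H3K4me3 peaks, so the increases are in place within the list alone.

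**Figure D4:**
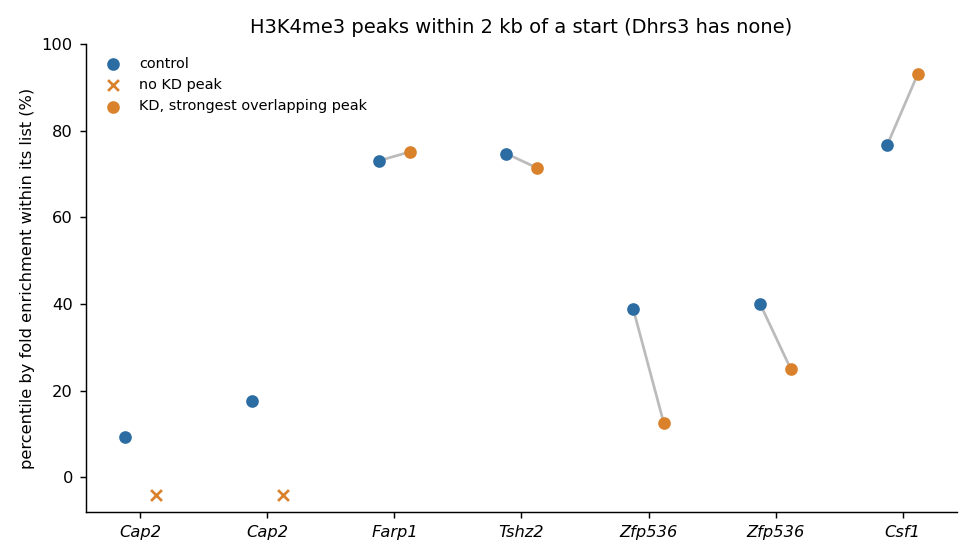
Percentile by fold enrichment within its own list of each H3K4me3 peak within 2 kb of a start, in control cells (blue) and for the strongest overlapping KD peak (orange); crosses stand for no KD peak. The Cap2 peaks have no KD peak, the Zfp536 peaks are lower in KD cells, and the Csf1 peak is higher.

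Pol2, measured in control cells only, was at the starts of the same 5 genes that had H3K4me3, against 48.0% of all genes. Its fold ranged from 34.5 at Csf1, at the 97.6th percentile of Pol2 peaks, down to 6.11 at Zfp536, 4.89 at Cap2, 3.67 at Farp1 and 3.63 at Tshz2, the last at the 3.39th percentile. Within Tshz2 a Pol2 peak 158 kb from the 5′ end had a fold of 11.3, above that of its start. In Zfp536 3 Pol2 peaks lay in a row from the Pax6 peak towards the start of the shorter transcript. Dhrs3 had no Pol2 peak in its whole window, as had 29.9% of gene windows, and the nearest Pol2 peak to its Pax6 site was 245112 bp away.

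The bases before the annotated starts of Cap2, Zfp536 and Dhrs3 are shown because these starts differed most in H3K4me3: both peaks lost, weakened, and none in either line. Each sequence is the 250 bases upstream of the 5′ end of the gene, written 5′ to 3′ on the strand of the gene (mm9), with CpG dinucleotides in capitals.
Cap2 (chr13:46596967-46597216, plus strand): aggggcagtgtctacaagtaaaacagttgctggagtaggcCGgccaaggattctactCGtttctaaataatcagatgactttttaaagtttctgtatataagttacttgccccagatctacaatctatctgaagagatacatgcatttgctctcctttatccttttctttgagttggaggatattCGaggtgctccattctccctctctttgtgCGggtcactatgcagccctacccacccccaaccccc
Zfp536 (chr7:38554772-38555021, minus strand): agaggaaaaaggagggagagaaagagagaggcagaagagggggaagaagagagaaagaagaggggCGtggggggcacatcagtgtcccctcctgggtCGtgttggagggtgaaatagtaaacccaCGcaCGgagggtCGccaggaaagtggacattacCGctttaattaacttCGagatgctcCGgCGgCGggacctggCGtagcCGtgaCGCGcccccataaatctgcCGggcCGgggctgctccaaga
Dhrs3 (chr4:144482480-144482729, plus strand): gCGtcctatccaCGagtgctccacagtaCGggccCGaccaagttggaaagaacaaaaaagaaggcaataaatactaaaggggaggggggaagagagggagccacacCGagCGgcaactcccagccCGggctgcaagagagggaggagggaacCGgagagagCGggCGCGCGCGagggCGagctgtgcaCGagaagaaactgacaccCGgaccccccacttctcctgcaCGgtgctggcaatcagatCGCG

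Cap2 had 4 CpG dinucleotides there, Zfp536 16 and Dhrs3 19, against a median of 8 over all genes. Dhrs3 had the most CpG of the 6 genes and no H3K4me3 or Pol2 at its starts. It did have H3K4me2 over its starts in control cells, KD cells and lens. Farp1 had 15, Csf1 10 and Tshz2 6.

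Newborn lens shared H3K4me2 with αTN4 cells at these genes, pooled, about as often as in the whole list. Of the 101 control H3K4me2 peaks, 40 overlapped a lens peak (39.6%, 30.6 to 49.4), against 41.3% of the whole control list. In gene windows with at least 4 control H3K4me2 peaks the median share was 60% (interquartile range 40 to 80). This median counts each window once, while the pooled share counts each peak, so they are unlike measures. By window, Tshz2 with 9 of 33 and Csf1 with 6 of 23 were below that range. The other windows were within it, from 6 of 15 in Farp1 to 11 of 16 in Zfp536. In the other direction 46 of 117 lens peaks overlapped a control peak (39.3%), against 45.4% of 56214. H3K4me2 lay within 2 kb of a start of all 6 genes in lens, against 66.8% of genes. Lens H3K4me2 overlapped the Pax6 peaks of Cap2, Farp1, Zfp536 and Csf1, against 38.3% of all Pax6 peaks, and was 117 bp away at Dhrs3 and 6092 bp away at Tshz2. Peak names in the lens list hold the word rep, like those of the KD list, so the control list may hold more pooled reads than the lens list as well, and the part of this in the lens comparison was not tested.

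Zfp536 had more and narrower H3K4me2 peaks in lens than in αTN4 cells. Its window held 52 lens peaks covering 46.8 kb (8.48% of it), against 16 control peaks covering 28.7 kb (5.22%), so that covered length differed less than number did. Of the lens peaks 35 had no counterpart in control cells, while 11 of the 16 control peaks were shared. The strongest lens peak, 5691 bp wide with a fold of 30.5 at the 97.7th percentile, lay over the 5′ start. A lens peak with a fold of 17.1 lay 433 kb from the 5′ end, over a weak control peak (fold 3.8) that was lost in KD cells.

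Csf1 showed the reverse. Its window held 8 lens peaks covering 6.65% of it, against 23 control peaks covering 35.8%, and 17 of the control peaks had no lens counterpart although 7 of the 8 lens peaks were shared. Its strongest lens peak (fold 25.5) was at the start of Ahcyl1, and the peak at its own start had a fold of 25.3.

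In the other windows the strongest lens peak was at the start of the gene each time, with folds of 33.7 at Tshz2, 24.5 at Dhrs3, 24.1 at Farp1 and 19.2 at Cap2. Farp1 shared 6 of 15 control peaks with lens, Cap2 6 of 10 and Dhrs3 2 of 4. Of the 21 control peaks lost in KD cells, 4 had a lens counterpart, against 13.5% of all 11630 lost peaks.

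**Figure D5:**
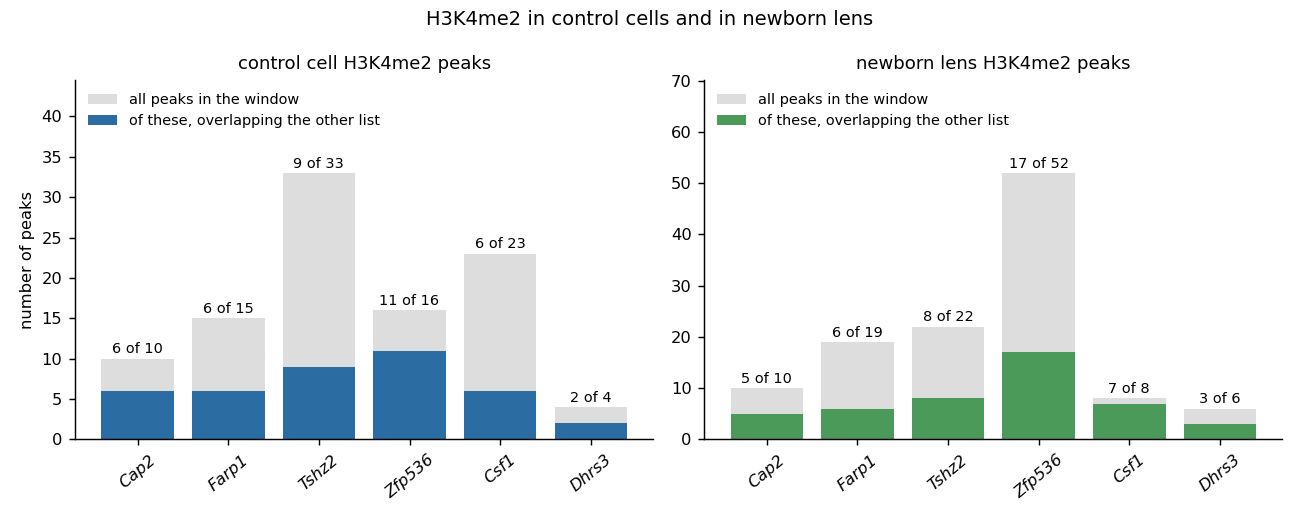
Number of H3K4me2 peaks per gene window in control αTN4 cells (left) and in newborn lens (right), with the coloured part overlapping a peak of the other list. Zfp536 has 52 lens peaks and 16 control peaks, and Csf1 8 and 23.

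The labelled cell types were checked at marker genes by H3K4me3 or Pol2 at a start in αTN4 cells and H3K4me2 in lens. Of 8 lens and lens epithelium markers found in the annotation, 6 had H3K4me3 and Pol2 in control cells, among them Pax6, Prox1, Six3, Cryaa and Cryab, while Foxe3 and Cdh1 had neither. Of 6 fibre markers, 0 had H3K4me3 in αTN4 cells and 5 had H3K4me2 in lens. Of 9 markers of other cells, 2 had H3K4me3 and Pol2 in αTN4 cells, the mesenchymal genes Col1a1 and Pdgfra, and 5 had H3K4me2 in lens. The part of such cells in the lens peaks of the 6 genes was not tested.

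The 4 other genes that the study names beside these, Pax6, Plekha1, Prox1 and Eya4, kept like shares in windows made the same way. The pooled median change of what they kept had the other sign, but the single genes differed. They kept 17 of 24 H3K4me1 islands (70.8%), 26 of 32 H3K4me2 peaks (81.3%) and 13 of 17 H3K4me3 peaks (76.5%). Each of these shares lies within the interval of the 6 genes except that of H3K4me1, whose own interval of 50.8 to 85.1 overlaps theirs. The median change of kept H3K4me3 peaks was 4.42 percentile points for these 4 genes, with 9 of 13 higher in KD cells, against -11.3 with 3 of 10 higher for the 6. For H3K4me2 it was 3.15 against -4.65 points, and for H3K4me1 density 0.07 against -0.05. By gene, the H3K4me2 and H3K4me1 medians were below 0 at Pax6 (-8.41 points and -0.30) and Plekha1 (-0.15 and -0.06). They were above 0 at Prox1 (7.65 and 0.31) and Eya4 (2.12 and 0.12). For H3K4me3, 8 of the 13 kept peaks were those of Pax6, and Eya4 had none. The difference between both sets of genes was not tested.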

How the data were processed

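Reads had been aligned by the authors to mm9 with Bowtie, MACS2 gave the peaks of Pax6, Pol2, H3K4me2 and H3K4me3, and SICER gave the H3K4me1 islands (window 200 bp, gap 600 bp); versions are not given in the sources used here. The authors deposited for each MACS2 peak a fold enrichment, the −log10 of p and q and a display score, which was not used. For each SICER island they deposited the count of ChIP reads, the count of control reads (called input reads here), a fold, a p-value and an FDR. Depth of the MACS2 libraries is unknown; islands held 3289553 ChIP reads in control and 1849269 in KD cells. Peak lists of 9 of 15 samples were used, and libraries labelled with swapped Pax6 and Pol2 antibodies in one field were assigned by title.

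The 6 genes and all lists were chosen with earlier results of these data known. Windows, starts and introns came from GENCODE vM1 on NCBIM37 (mm9). Overlap means at least 1 bp, and strength of a MACS2 peak its percentile by fold enrichment within its list, with the strongest overlapping KD peak as its counterpart. Named regions in each window were the Pax6 peak with the marks over it, regions at starts, the 2 islands with most reads, the 2 strongest lost and 2 KD-only H3K4me2 peaks and the strongest lens peak; the other islands and peaks given were chosen after their values were seen. Overlap counting was checked on simulated lists. Alternatives covered window size, overlap, stricter lists (−log10 q of at least 5, FDR of at most 1e-06), scaling, and leaving out each gene. Scripts ran in Python 3.11.15 with pandas 2.3.3, NumPy 2.4.6, matplotlib 3.10.9 and SciPy 1.17.1.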

Additional observations from a re-analysis of the deposited data

How the results depend on the processing

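Of the planned recalculations, 82 stayed within the interval of the reported share or median, or within 1.5 times a reported count, and 5 did not. Counting a region as shared only when at least 50% of it was covered lowered the share of H3K4me2 peaks kept to 69.3% and raised the share of KD H3K4me1 islands absent from control cells to 15.6%. With an overlap of 1 bp that last share was 2.22%, and 0% without Tshz2, which holds the single such island. The median change in H3K4me1 density was -0.37 without centring and 0.46 when scaled by all ChIP reads in islands, a sum that moves with how much was called. Of 6 further counts for single genes, chosen after seeing the data, 5 were alike and 1, the Dhrs3 islands kept within 100 kb on each side, was 2 of 7 in place of 0 of 4. The share of H3K4me3 peaks kept rests on 14 control peaks, and its interval, 45.4 to 88.3%, ends just below the 89.9% of the whole list. No paired analysis was possible because each condition has 1 library.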
